A study of Homo sapiens with 6 samples.

Results

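EGR2, KLF10 and RHOB are early response genes, and their Argonaute-bound positions were followed in HK2, an immortalised human cell line from the proximal tubule of the kidney. The members were chosen by gene symbol: all rows of the crosslink table with 1 of these 3 names were taken, which gave 8 of the 16230 listed sites and 3 of the 4361 named genes. EGR2 and KLF10 had 2 sites each and RHOB had 4, and the authors' annotation (GENCODE release 27 on the hg38 genome) places all 8 in 3' UTRs. In the files EGR2 is ENSG00000122877.15, on the minus strand of chromosome 10, KLF10 is ENSG00000155090.14, on the minus strand of chromosome 8, and RHOB is ENSG00000143878.9, on the plus strand of chromosome 2.

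The libraries come from PAR-CLIP, in which 4-thiouridine built into RNA is joined by light to the protein bound there, and the joined base shows up as a change in the read. The groups were 2 anti-Argonaute libraries from wild-type HK2 cells treated for 24 h with 20 ng/mL TGF-beta1, 2 anti-Argonaute libraries from wild-type control cells, and 2 IgG control libraries. All cells were serum starved for 24 h, held in 100 uM 4-thiouridine over the final 20 h, and exposed to light of 365 nm. No values of the IgG libraries were used here, and no background can be set beside the results. Whether replicates were separate cultures is not in the labels; the p-values therefore reflect only how far these libraries spread, and that spread may be technical.

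MicroRNAs guide Argonaute to messenger RNAs, mostly through pairing of the microRNA seed, bases 2 to 8, with the 3' UTR, and bound messages are repressed or degraded. Early response genes are transcribed within minutes of a growth factor or stress signal, and their messages are typically short-lived. EGR2 is a zinc finger transcription factor best known for its role in hindbrain patterning and myelination. KLF10, also called TIEG1 for TGF-beta inducible early gene, is a zinc finger repressor that takes part in the SMAD response. RHOB is a small GTPase of endosomes and the actin cytoskeleton whose message, unlike those of its relatives RHOA and RHOC, is induced as an early response.

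The TGF-beta1 libraries held 5293208 and 3415700 reads and the controls 1714445 and 1926255, as worked out from the value of a single read. Of 15 proximal tubule markers 1, CDH6, had a listed site, on 70 reads; 1 of 4 epithelial keratins, KRT18, had one; and of 13 markers of other kidney and blood cell types 0 did. The list holds Argonaute-bound positions, so a missing marker is not a missing message. By total crosslinked reads over the 4 libraries RHOB ranked 175 of 4361 genes with 227 reads, KLF10 ranked 457 with 107, and EGR2 ranked 691 with 73.

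The sequences below are the bound sites that the results turn on, each running from 10 bases before the crosslinked T to 15 after it on the transcript strand. Capitals mark the match to the microRNA seed that the authors annotated, and a sequence without capitals has no annotated match. The deposited table writes the crosslinked base as an asterisk; T was put back, since T completed the match at all 1296 sites in the table where the asterisk falls inside a seed match.
EGR2 site 1, chr10:62812735-62812760, minus strand: aaaactgatgtGCACTTTatggcttg
EGR2 site 2, chr10:62812522-62812547, minus strand: gtttgagaaATGTAGgctattttttc
RHOB site 2, chr2:20448995-20449020, plus strand: tgtaacctcatctacttctgatgttt
RHOB site 3, chr2:20449348-20449373, plus strand: aatggtgagcttatgaTGTTTACata
RHOB site 4, chr2:20449371-20449396, plus strand: ataaaagttctATAAGCTgtgtatac

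Mature microRNAs with a match that the authors list at the most used of these sites are shown with the seed, bases 2 to 8, in capitals (RefSeq, GRCh38.p14). Of 14 microRNAs in the families that the authors assign to the sites, 13 matched that table.
miR-17-5p: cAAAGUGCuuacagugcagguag
miR-20a-5p: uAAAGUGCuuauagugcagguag
miR-93-5p: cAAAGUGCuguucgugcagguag
miR-106b-5p: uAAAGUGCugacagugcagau
miR-148a-3p: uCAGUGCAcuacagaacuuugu
miR-21-5p: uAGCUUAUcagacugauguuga
The first 4 share the seed AAAGUGC and form the miR-17 family, 2 of whose members, miR-17 and miR-20a, the series title names. Pairing to that seed needs GCACTTT in the message, and pairing to the miR-21 seed needs ATAAGCT.

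EGR2 and KLF10 each had 1 dominant site, and both dominant sites carried the same GCACTTT match to the miR-17 family, beginning 1 base after the crosslinked T. KLF10 site 1 lies at position 102649327 and site 2 at 102648828 (hg38), and their sequences are not shown. In the EGR2 site the match is followed by A, the letter of the longest canonical match (8mer), and in the KLF10 site it is not. In EGR2 the crosslinked T and the first letters of the match also spell TGCACT. At both sites the authors list a second match, to miR-148a, miR-148b and miR-152, starting at the crosslink. The full 7-nt match to these 3, TGCACTG, was found in 0 of the 8 member windows, so this second match is shorter than that to the miR-17 family. Which family was bound was not tested. The authors also list a match to the miR-30 family at KLF10 site 1, starting 7 bases downstream of the crosslink. GCACTTT was found in 2 of the 8 member windows and in 154 of 6332 windows at 3' UTR sites (2.43%). These windows are 31 nt long and were read on the transcript strand only. Among the 138 3' UTR sites that the authors annotate with this 7-nt match, which had a median of 18 crosslinked reads, KLF10 site 1 ranked 10 with 101 reads and EGR2 site 1 ranked 16 with 66.

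Most RHOB crosslinks lay at a site with another seed match. Site 4 has the ATAAGCT match to miR-21, also 1 base after the crosslinked T, and lies 59 bases from the RefSeq 3' end of the gene. It held 166 of RHOB's 227 crosslinked reads and ranked 2 of the 49 3' UTR sites annotated with this match, against a median of 21 reads. The authors' level for the miR-21 seed, 376262 RPM (reads scaled to the size of the library), is the highest of any seed in the table, against 3425 for the miR-17 family. The authors also list a miR-146 match near site 4, starting 5 bases before the crosslink, and which microRNA was bound there was not tested. Site 3, slightly upstream, carries the 7-nt letters for miR-30, starting 6 bases from the crosslink, and site 1 has a 6-nt match to miR-148 and miR-152 that starts 4 bases away. Site 2 has no annotated seed match. EGR2 site 2 has a 6-nt match to miR-221 and miR-222 that contains the crosslinked base, and KLF10 site 2 has no match.

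Messages of early response genes often carry AU-rich elements, which bind decay factors. The AU-rich core ATTTA was found in 0 of the 8 member windows and in 358 of 6332 3' UTR windows (5.65%). The Pumilio motif TGTANATA was found in 0 of 8 and in 57 of 6332 (0.900%). No match says only that these letters are not in the 31 nt around a crosslink.

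The main question was whether crosslinking to these messages differed after TGF-beta1. EGR2 site 1 rose 4.52-fold in TGF-beta1 cells. It had 22 and 34 crosslinked reads in the TGF-beta1 libraries and 1 and 9 in the control libraries. After scaling by library depth and TMM (a factor that sets the typical site equal between libraries), this was 6.77 and 9.71 RPM in TGF-beta1 cells, against 0.553 and 3.10 in control cells. Both TGF-beta1 libraries lay above both controls, and control replicate 1 lay far below control replicate 2. Scaled by depth alone, the groups overlapped, at 4.16 and 9.95 RPM in TGF-beta1 cells against 0.583 and 4.67 in control cells. The means were 8.24 ± 2.08 scaled RPM in TGF-beta1 cells and 1.83 ± 1.80 in control cells (SD, n = 2 each). The log2 difference, on the log2(scaled RPM + 1) scale, was 1.85 ± 0.55 (SE; 95% interval 0.72 to 2.99; limma adjusted p = 0.0392 over 1059 sites). Of all tested sites 7.18% were called, 3.68% higher and 3.49% lower, and at 23.9% both TGF-beta1 libraries lay above both controls. Without TMM scaling 4 sites were higher and 24 lower. The site passed the filter on low counts through both TGF-beta1 libraries and 1 control. The controls alone would not have kept it, so the filter favoured this direction. Without the filter the limma adjusted p was 0.273. Without control replicate 1 its log2 difference was 1.20 (limma adjusted p = 0.123), without TGF-beta1 replicate 1 it was 2.29 (limma adjusted p = 0.621), and without TGF-beta1 replicate 2 it did not pass the filter. It also missed the threshold with DESeq2 (adjusted p = 0.139) and when depth alone was used for scaling, where the log2 difference was 1.33 (limma adjusted p = 0.284).

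Summed over both sites, EGR2 stood at 7.67 and 9.96 scaled RPM in TGF-beta1 cells, against 0.553 and 3.75 in control cells. The sum did not pass the gene test (log2 difference 1.84 ± 0.55 SE; limma adjusted p = 0.122). Of the 1266 genes tested 3.08% were called, 1.58% higher and 1.5% lower, and without TMM scaling 6 were higher and 23 lower. EGR2's groups did not overlap, with both TGF-beta1 libraries higher, as in 20.5% of tested genes (23.1% lay the other way). Scaled by depth alone, they overlapped, at 5.10 and 10.2 RPM in TGF-beta1 cells against 0.583 and 5.19 in control cells. With 3' UTR sites only, where EGR2 has the same reads, it passed (limma adjusted p = 0.00122), and it passed with covering reads in place of crosslinked reads (limma adjusted p = 0.00268). Covering reads are all reads over the site, with or without a crosslink. The log2 differences of these 2 fits, 1.96 and 1.84, were close to the reported one. Their degrees of freedom were far higher, at 159 and 2532, against 10.4 in the reported test. Only Argonaute-bound RNA was analysed, so more binding per message and more EGR2 message cannot be told apart, nor can fewer cells with the message and less of it per cell. EGR2 site 2 was weakly used, with 5 and 1 reads in TGF-beta1 cells and 0 and 1 in control cells.

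**Figure D1:**
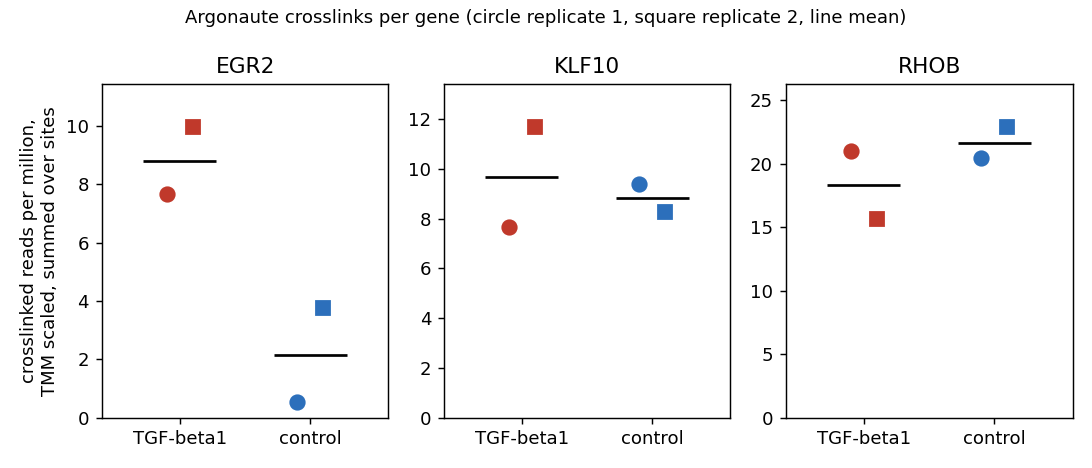
Crosslinked reads in RPM, scaled by TMM and summed over all sites of a gene, for EGR2, KLF10 and RHOB, with a point per library and a line at the mean of each group (n = 2). For EGR2 the TGF-beta1 libraries, at 7.67 and 9.96, lie above the controls, at 0.553 and 3.75. For KLF10 and RHOB the groups overlap. Scaled by depth alone (not drawn), the EGR2 groups overlap and the RHOB groups do not.

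KLF10 was not shown to differ. Its site 1 had 22 and 41 reads in TGF-beta1 cells and 16 and 22 in control cells, which is 6.77 and 11.7 scaled RPM in TGF-beta1 cells against 8.85 and 7.57 in control cells. The TGF-beta1 libraries lay on either side of both controls. The log2 difference of the site was 0.11 ± 0.38 (SE; 95% interval -0.68 to 0.91; limma adjusted p = 0.904). Summed over both sites KLF10 averaged 9.67 ± 2.83 scaled RPM in TGF-beta1 cells and 8.82 ± 0.815 in control cells, with a log2 difference of 0.10 ± 0.34 (SE; 95% interval -0.66 to 0.86; limma adjusted p = 0.937). The sign of this small difference turned without TMM scaling, to -0.39, and with covering reads, to -0.21. KLF10 site 2, near the end of the message, had 5 and 0 reads in TGF-beta1 cells and 1 and 0 in control cells.

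EGR2 and KLF10 share the match, and the counts at their site 1 were closer in TGF-beta1 cells than in control cells. In the same library, and so free of depth and scaling, EGR2 site 1 had 1.0 and 0.829 reads per read of KLF10 site 1 in TGF-beta1 cells, against 0.0625 and 0.409 in control cells. The value of 0.0625 rests on 1 EGR2 read, in control replicate 1. The ratio of these sites was chosen after the values were seen. The groups did not overlap, and the p of an exact permutation test (two-sided) was 0.333, the smallest that 2 libraries against 2 allow. Of the 38 tested 3' UTR sites with the 7-nt miR-17 match, 4 rose and 1 fell, where 3.68% of all tested sites rose and 3.49% fell. Their median log2 difference was 0.06, beside 0.05 over all tested sites. EGR2 site 1 is among the 4.

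RHOB as a whole was not shown to differ either. Summed over its 4 sites it stood at 21.01 and 15.7 scaled RPM in TGF-beta1 cells, against 20.5 and 22.9 in control cells, with a log2 difference of -0.24 ± 0.27 (SE; 95% interval -0.84 to 0.36; limma adjusted p = 0.77). The groups overlapped. The miR-21 site, site 4, had 61 and 42 reads in TGF-beta1 cells and 21 and 42 in control cells. That is 18.8 and 11.996 scaled RPM in TGF-beta1 cells against 11.6 and 14.5 in control cells, and the groups overlapped (log2 difference 0.20 ± 0.32 SE; 95% interval -0.47 to 0.87; limma adjusted p = 0.79). Without TMM scaling the sign turned, to -0.43. Of the 14 tested 3' UTR sites with a 7-nt miR-21 match, 1 rose, in TGFBI, and 0 fell by limma (median log2 difference -0.03). Of all tested sites 3.68% rose and 3.49% fell.

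RHOB site 2, the one without a seed match, pointed the other way without passing the test. It had 7 and 6 reads in TGF-beta1 cells and 15 and 11 in control cells, from libraries of lower depth. In scaled RPM this was 2.16 and 1.71 in TGF-beta1 cells against 8.30 and 3.79 in control cells. Both TGF-beta1 libraries lay below both controls, as at 24.5% of tested sites, and the controls lay far apart. The log2 difference was -1.19 ± 0.54 (SE; 95% interval -2.31 to -0.07; limma adjusted p = 0.214). Without control replicate 1 it was -0.66 (limma adjusted p = 0.706), and without control replicate 2 it was -1.66 (limma adjusted p = 0.0918). The site passed the filter on low counts only through the controls, so the filter favoured this direction, and with covering reads the log2 difference was -0.34. RHOB site 1 had 5 and 7 reads in TGF-beta1 cells and 0 and 5 in control cells, and site 3 had 1 and 0 in TGF-beta1 cells and 1 and 3 in control cells. Of the 8 sites, 4 passed the filter on low counts and 1 was called, where 7.18% of all tested sites were called. The other 4 held 5 to 17 reads over all libraries.

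**Figure D2:**
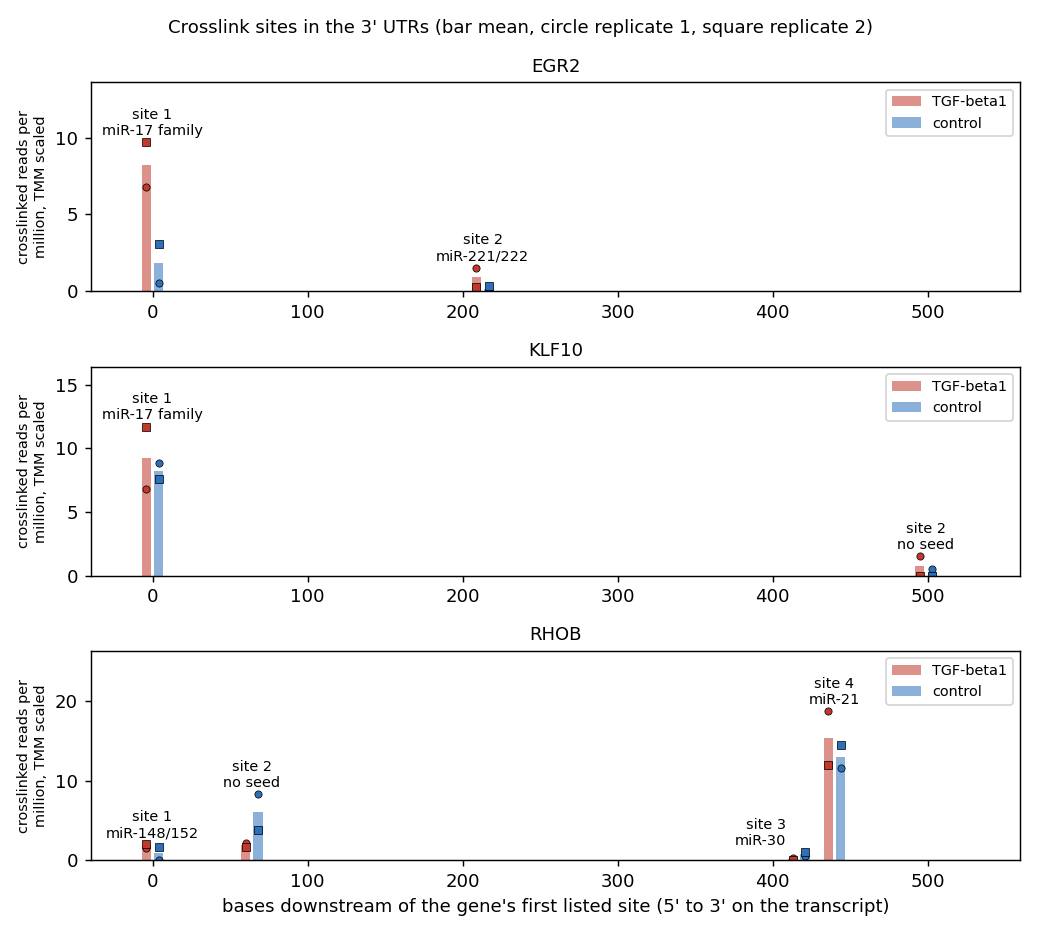
Crosslinked reads in RPM, scaled by TMM, at each listed site, placed by its distance in bases from the first site of the gene in the direction of transcription, with bars for group means and a point per library. A single site dominates EGR2 and KLF10, and in RHOB site 4 stands above site 2 in all 4 libraries.

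The shares of RHOB crosslinks at sites 2 and 4 did not overlap between groups, and those at site 1 did. All shares are parts of the same total, so a fall at site 2 and a rise at site 4 are not separate results. How often shares separate in other genes was not tested. Site 4 held 82.4 and 76.4% of RHOB crosslinked reads in TGF-beta1 cells, against 56.8 and 68.9% in control cells. Site 2 held 9.46 and 10.9% in TGF-beta1 cells, against 40.5 and 18.03% in control cells. The mean share of site 4 was 79.4% ± 4.29 in TGF-beta1 cells and 62.8% ± 8.55 in control cells (SD, n = 2 each), and that of site 2 was 10.2% ± 1.03 in TGF-beta1 cells and 29.3% ± 15.9 in control cells (exact two-sided permutation p = 0.333 for each, the smallest that this test can give with 2 libraries against 2). Site 1 held 6.76 and 12.7% in TGF-beta1 cells, against 0 and 8.197% in control cells, where 0 of 37 reads allows up to 8.11%. Site 3 held 1.35 and 0% in TGF-beta1 cells, where 0 of 55 reads allows up to 5.45%, against 2.703 and 4.92% in control cells. Sites 1 and 3 thus rest on few reads. At site 3 the limit of 5.45% lies above both control shares, so a separation of the groups is not shown there. Counted in reads of the same library, site 2 had 0.115 and 0.143 reads per read of site 4 in TGF-beta1 cells, against 0.714 and 0.262 in control cells. By covering reads the difference in share was smaller, 6.45 percentage points for site 4 and -7.42 for site 2, against 16.6 and -19.1 by crosslinked reads. By covering reads site 2 overlapped between groups, with 14.1 and 24.2% in TGF-beta1 cells against 36 and 17.2% in control cells. These shares are affected by coverage listed as 0 where a library has no crosslink. EGR2 site 1 held 89.3% ± 11.1 of its gene's reads in TGF-beta1 cells and 95% ± 7.07 in control cells, where the gene had 1 and 10 reads in all. KLF10 site 1 held 90.7% ± 13.1 in TGF-beta1 cells and 97.1% ± 4.16 in control cells.

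How often a covering read carried the crosslink differed widely among the 8 sites. At RHOB site 4 it was 74.4% (95% Wilson interval 64.0 to 82.6) and 53.2% (42.3 to 63.8) in the TGF-beta1 libraries, and 84.0% (65.3 to 93.6) and 67.7% (55.4 to 78.0) in the controls. KLF10 site 1 was close to this, at 56.4 and 73.2% in TGF-beta1 cells and 61.5 and 71.0% in control cells. EGR2 site 1 stood lower, at 36.1 and 42.5% in TGF-beta1 cells and, on 4 and 18 covering reads, 25 and 50% in control cells. At all 3' UTR sites with at least 10 covering reads the median was 18.2 and 20% in the TGF-beta1 libraries, against 20.8 and 26.3% in the controls. Each median is over the sites of its own library, 4023 and 3810 in TGF-beta1 libraries against 1912 and 2790 in controls. The medians therefore do not show whether the same sites were lower. The 90th percentile was 61.5 and 62.5% in TGF-beta1 libraries, against 66.7 and 72.2% in controls. RHOB site 2 was at 21.2% (10.7 to 37.8) and 13.04% (6.12 to 25.7) in TGF-beta1 cells, against 55.6% (37.3 to 72.4) and 31.4% (18.6 to 48.0) in control cells. Its groups did not overlap, as those of the median over all 3' UTR sites did not. Whether site 2 differs beyond the difference in medians was not tested. RHOB site 3 was covered by 83 reads in TGF-beta1 replicate 1, about as many as the 82 over site 4, but carried 1 crosslink (1.20%, 0.213 to 6.51). Sites 3 and 4 lie 417 and 440 bases from site 1, so the same reads may cover both, and the miR-30 match at site 3 has few crosslinks of its own. The intervals cover counting error only, since no molecular identifiers are named.

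**Figure D3:**
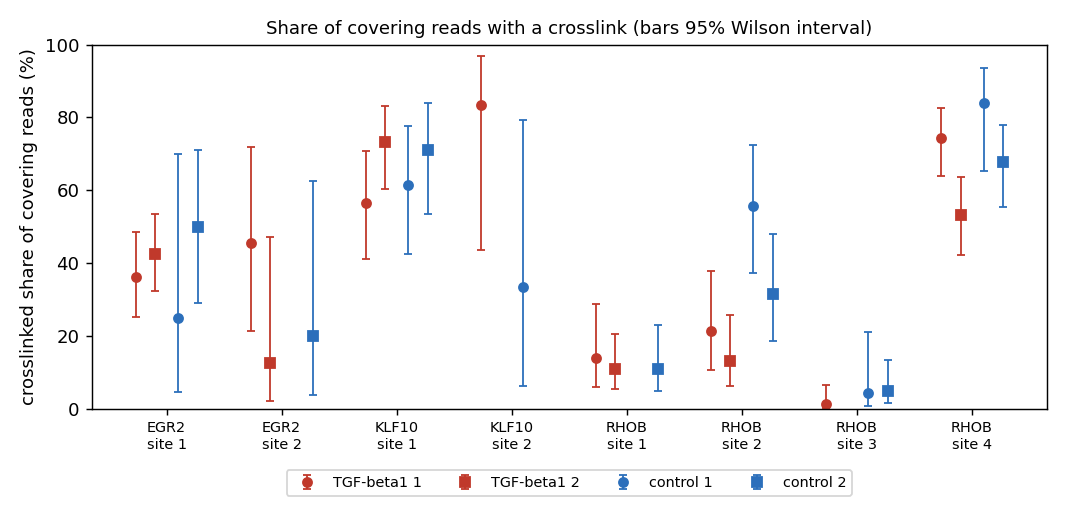
Percentage of reads covering each site that carry the crosslink, per library, with 95% Wilson intervals; libraries without a crosslinked read at a site are not drawn, since the table lists their coverage as 0. RHOB site 4 and KLF10 site 1 stand highest among the well covered sites, and RHOB site 2 is lower in both TGF-beta1 libraries than in both controls. So is the median over all 3' UTR sites (18.2 and 20% against 20.8 and 26.3%), which is taken over different sites in each library.

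Beside the members, a list of 66 other early response genes was counted. Of these, 31 had a listed site, 21 were tested, 2 rose and 0 fell, with a median log2 difference of 0.17, beside 0.02 over all 1266 tested genes, of which 1.58% rose and 1.5% fell. The log2 difference was above 0 in 11 of the 21 and below 0 in 10, against 649 and 617 of all tested genes. Among those called as higher was the kinase SGK1. SGK1 averaged 51.5 ± 5.15 scaled RPM in TGF-beta1 cells and 24.7 ± 1.02 in control cells (SD, n = 2 each; limma adjusted p = 0.0376, and 0.697 without TMM scaling). This list and the SMAD feedback list were chosen with earlier results of these data known, so their counts are a description only. Of the 15 genes of the SMAD feedback list 8 were tested, 2 rose and 0 fell (median log2 difference 0.52), against the same 1.58% and 1.5% of all tested genes. The 2 that rose were SMAD7, the inhibitory SMAD, at 32.3 ± 3.47 in TGF-beta1 cells and 12.5 ± 0.411 in control cells (limma adjusted p = 0.0221, and 0.537 without TMM scaling), and PMEPA1, another inhibitor of the pathway, at 51.4 ± 6.75 in TGF-beta1 cells and 8.46 ± 0.232 in control cells (limma adjusted p = 0.000442). Without control replicate 2, SGK1, SMAD7 and PMEPA1 did not pass (limma adjusted p = 0.336 each), nor did any other gene. Their log2 differences there were 0.97, 1.32 and 2.47, against 1.03, 1.30 and 2.47 with all libraries, and the fit had 2.00 degrees of freedom. SGK1 and SMAD7 also missed the threshold with any other library left out, and PMEPA1 without control replicate 1 (limma adjusted p = 0.051).

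The relatives and partners of EGR2 and KLF10 were mostly too thinly bound to test. Of 13 KLF, SP and EGR partner genes 6 had a site and 2 were tested, the zinc finger factors SP3 and KLF7. Of these 0 were called by limma, against 3.08% of all tested genes. SP3 stood at 7.95 and 6.26 scaled RPM in TGF-beta1 cells against 3.32 and 3.37 in control cells (limma adjusted p = 0.352).

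**Figure D4:**
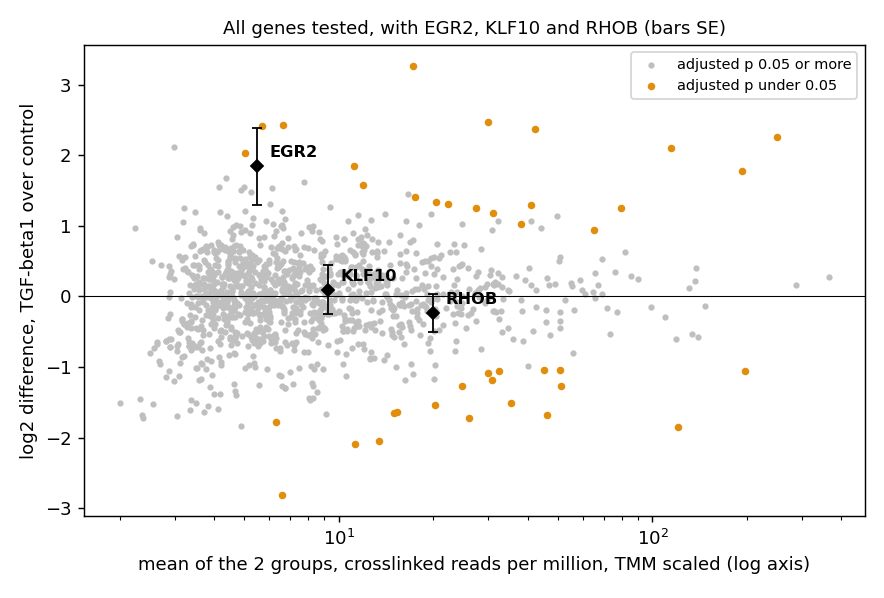
Log2 difference, TGF-beta1 over control, against the mean level of each of the 1266 tested genes (log axis), with genes at an adjusted p under 0.05 in orange and EGR2, KLF10 and RHOB as black diamonds with SE bars. EGR2, at 1.84, lies among the highest differences at its level but is not called, and KLF10 and RHOB lie near 0.

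Genes with the most similar profiles were found by the distance between log2 values of the 4 libraries, each gene centred on its own mean. Nearest to EGR2 were NACA, a ribosome-associated chaperone subunit (distance 0.275), ELK3, an ETS factor (0.325), and ZNF460 (0.634). ELK3 stood at 8.24 and 10.2 scaled RPM in TGF-beta1 cells against 1.11 and 4.87 in control cells. Only NACA and ELK3 lay within a distance of 0.5 of EGR2, against 209 genes for KLF10 and 238 for RHOB. Nearest to KLF10 were FNDC3A, UGDH and SPECC1 (0.115 to 0.142), and nearest to RHOB were TBL1XR1, SRGAP1 and KCTD2 (0.052 to 0.105). With 4 libraries such closeness is a description only.

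**Figure D5:**
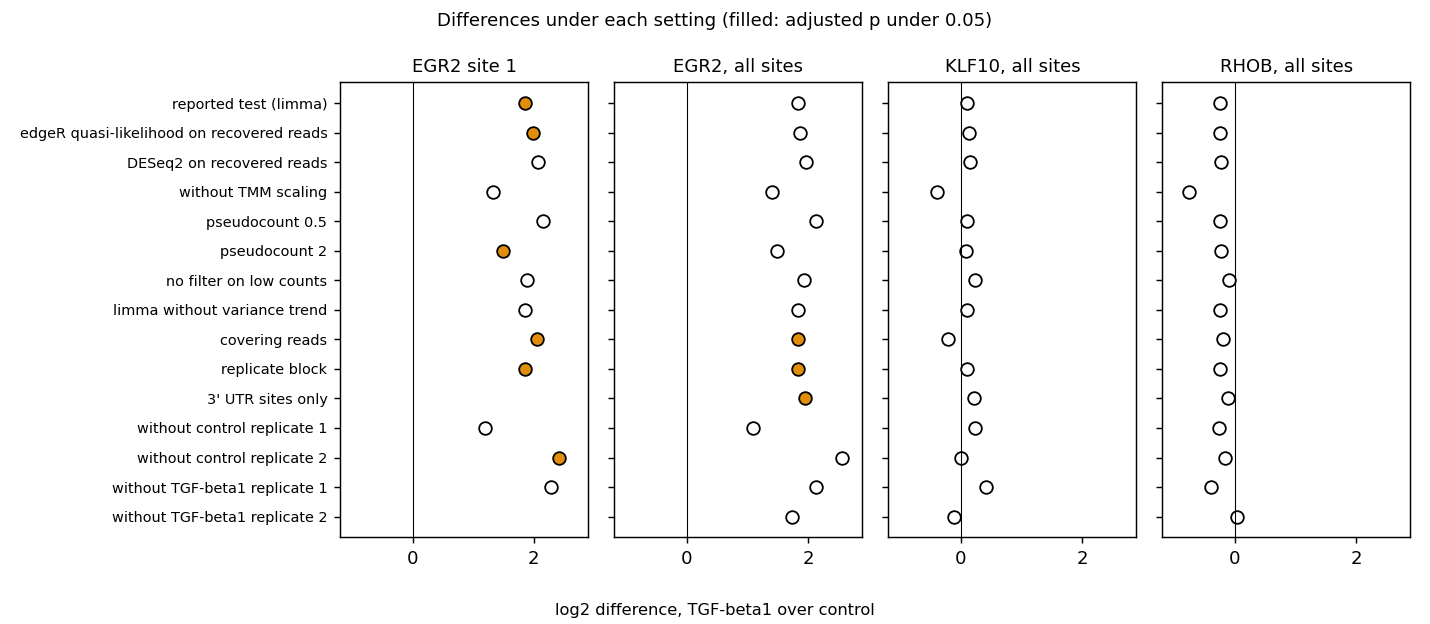
Log2 difference, TGF-beta1 over control, for EGR2 site 1 and for the sums of EGR2, KLF10 and RHOB under the reported test and each alternative, filled where the adjusted p is under 0.05. EGR2 is above 0 under every setting drawn, from 1.09 to 2.56 for the sum, but filled under few of them, and KLF10 and RHOB are filled under none.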

How the data were processed

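Argonaute PAR-CLIP of HK2 cells was analysed for 2 TGF-beta1 and 2 control libraries. The deposited table gives crosslinked and covering reads per site in RPM, scaled by the authors to library depth, per the file headers, and microRNA reads per seed as a rounded score. STAR 2.7.1a, bedtools and bcl2fastq 2.20.0.422 appear in the submitters' processing notes; the crosslink caller is not given in the sources used here. All RPM values were whole multiples of 1 read (100.0% within 0.1 reads), so reads were recovered. Coverage is 0 wherever a library has no crosslink. Another 4 columns, of RNA-seq samples outside this series, were not used.

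For the reported test, TMM-scaled RPM plus 1 was put on the log2 scale and fitted with limma 3.58.1 (R 4.3.3), trend on, two-sided, with Benjamini-Hochberg adjusted p under 0.05 over all genes or sites kept by filterByExpr (minimum count 10; edgeR 4.0.16). TMM factors ran from 0.614 to 1.51 over sites and from 0.665 to 1.38 over genes. DESeq2 1.42.0 and edgeR on recovered reads, other scaling, pseudocounts of 0.5 and 2, no filter, no trend, covering reads, 3' UTR sites and left-out libraries were alternatives. The trend was first adopted with call counts of these data in view, and counts of calls depend on that choice. The scripts were tested on simulated data. Genes named beside the members passed the test within a list, or were the up to 3 most read of a list with none, or the 3 nearest in profile. Some genes and 1 list of genes are not reported here. The members and lists were chosen with earlier results of these data known. Deviations of same-numbered libraries from their group means correlated at 0.131 over genes and 0.117 over sites. With 2 libraries per group both pairs give the same value, so it cannot settle whether the libraries are paired. Replicate numbers were not treated as pairing the libraries in the reported test, and a fit with them as a block was an alternative.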

Additional observations from a re-analysis of the deposited data

How the results depend on the processing

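EGR2 site 1 was higher in TGF-beta1 cells under all 12 alternatives that gave a value and passed under 5. It missed the threshold with DESeq2 (log2 difference 2.06, adjusted p = 0.139), without TMM scaling (1.33, limma adjusted p = 0.284), with a pseudocount of 0.5 (2.15, 0.0516), without the filter on low counts (1.88, 0.273) and without the variance trend (1.85, 0.0853). Leaving out 1 library gave 1.20 to 2.42 (limma adjusted p from 0.0207 to 0.621). The EGR2 sum missed it in the reported test but passed with covering reads (1.84, limma adjusted p = 0.00268), with the replicate number as a block (1.84, 0.0377) and over 3' UTR sites alone (1.96, 0.00122). With 3' UTR sites only, EGR2 keeps the same reads, and the fit gave it 159 degrees of freedom against 10.4. The fit of covering reads gave it 2532. Leaving out 1 library gave 1.09 to 2.56. The KLF10 sum turned to -0.39 without TMM scaling and -0.21 with covering reads, and ran from -0.11 to 0.42 with a library left out. The RHOB sum was -0.76 without TMM scaling, and ran from -0.40 to 0.036 with a library left out. KLF10 site 1 turned to -0.47 without TMM scaling, and ran from -0.088 to 0.596 with a library left out (-0.03 without control replicate 2), and RHOB site 4 to -0.43 without TMM scaling. KLF10, RHOB and their sites passed in none of the alternatives run. Without TMM scaling the median tested gene lay at -0.45. The direction of every site share was kept by covering reads, but these include the crosslinked reads, so the check is weak. At RHOB site 3 it rests on coverage listed as 0 in TGF-beta1 replicate 2. There the other TGF-beta1 library stood at 35.5%, against 30.7 and 29.9% in the controls. In EGR2 and KLF10, with 2 sites each, one share fixes the other. The cause of the changes between settings was not tested.

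Of all genes 39 passed by limma, against 4 without the filter, 3 without the trend, 149 with covering reads, 64 with the replicate block, 70 with 3' UTR sites only, and 0 to 24 with a library left out. The 0 came without control replicate 2, where an unadjusted p under 0.05 was reached by 147 genes in the higher and 98 in the lower direction. Of all sites 76 passed, against 42 with DESeq2, 28 without TMM scaling (4 higher, 24 lower), 25 without the trend, 117 with the replicate block, 3 to 110 with a library left out, and 0 without the filter (limma; 2018 higher and 299 lower unadjusted). Control replicate 1 holds 1 EGR2 read, which limits the precision of its EGR2 value.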
